A study of Mus musculus with 12 samples.

Results

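Toll-like receptors (TLRs) and the inflammasome were described here in the mouse aorta through 10 genes: the receptors Tlr1, Tlr2, Tlr3, Tlr4, Tlr7 and Tlr9, the co-receptor Cd14, the adaptor Myd88, the inflammasome sensor Nlrp3 and the protease Casp1. They were found as the array probes, other than controls, that carry one of these gene names. That gave 14 probes out of 55681 (10 of 34796 gene names), and 10 of the 14, covering 9 of the 10 genes, were bright enough to be tested among 27801 tested probes. Tlr3 was the gene with no tested probe.

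RNA was taken on day 3 from a 10 mm stretch of aorta of male C57BL/6J mice aged 11 to 14 weeks, with 1 array for each of 12 mice, 3 in every group. The 2 control groups received rapamycin at 2 mg/kg/day, an inhibitor of the kinase mTOR, or its vehicle dimethylsulfoxide (DMSO). The 2 challenged groups were infused, to bring on aortic dissection, with angiotensin II (AngII, 1 ug/kg/min) and with beta-aminopropionitrile (BAPN), a blocker of collagen crosslinking, at 150 mg/kg/day, together with DMSO (BA+DMSO) or with rapamycin (BA+rapamycin). No group carries a transgene or a deletion by its labels. For the DMSO group the sample titles start with "Pre", whereas the series record describes it as DMSO alone at day 3. The sampled piece of aorta is a mixture of cell types, so more cells of a type and more RNA per cell cannot be told apart in any value given below.

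TLRs are receptors of innate immunity that recognise parts of microbes and molecules released by injured tissue. Tlr1, Tlr2 and Tlr4 act at the cell surface and Tlr3, Tlr7 and Tlr9 act in endosomes, where they bind nucleic acids. All of them except Tlr3 signal through Myd88, which leads to activation of the transcription factor NF-kB. In the inflammasome, a sensor such as Nlrp3 assembles with the adaptor Pycard and activates Casp1, which cleaves the precursors of interleukin-1 beta and interleukin-18. Macrophages carry most of these proteins, and smooth muscle cells and endothelial cells of arteries carry some of them.

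Some properties of the arrays touch the results. The 75th percentile of intensity, a measure of array brightness, lay between 221 and 280 in DMSO and between 257 and 337 in rapamycin, but BA+DMSO arrays spanned 78.1 to 246 and BA+rapamycin arrays 74.6 to 109. The lowest correlation between arrays of a group, across probes, was 0.987 in DMSO, 0.990 in rapamycin, 0.974 in BA+rapamycin and 0.912 in BA+DMSO. That last value was between BA+DMSO replicate 2, the dimmest array of its group, and replicate 3, the brightest challenged array (246). BA+DMSO replicate 2 also had the lowest level of its group in 8 of the 9 tested genes, so values that this array moves by over 1.5 times, and calls that turn on it, are given without it too for the 9 genes and the pathway and macrophage counts. All DMSO arrays and rapamycin replicate 1 lay on slide 1, and rapamycin replicates 2 and 3 and all challenged arrays lay on slide 2, so slide and challenge cannot be told apart between DMSO and BA+DMSO. Smooth muscle markers were well above background on every array, so the labelled tissue carries its defining markers.

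Values below are levels on the log2 scale minus the 75th percentile of the array, so that 0 is the brightness of that percentile. A gene's level is set only against the same probe on other arrays, since probes differ in how well they bind. Differences are log2 differences between group means with the standard error (SE), from limma across all tested probes, and a gene is said to rise or fall only at an adjusted p under 0.05. Each gene stands by its brightest tested probe.

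The start regions of 4 of the genes are shown first, because the transcription factors downstream of the receptors bind such regions. RefSeq entries on build GRCm38.p6, from 250 bases before to 50 bases after the transcription start, were at hand for 7 of the 10 genes in 9 entries. The letters AGGAAGT (core of ETS family sites, which include the myeloid factor PU.1), TGANTCA (AP-1) and the motifs of interferon regulatory factors (IRF) and NF-kB were searched on both strands. Of all 32851 promoter entries, 9.35% held the ETS letters, 3.44% the IRF motif, 7.81% the AP-1 letters and 8.46% the NF-kB motif. Capitals mark matches, each sequence is written 5′ to 3′ along the gene's strand, and a match is a description and not a bound site. Tlr1 and Tlr2 are receptors and Casp1 the protease that rose under the challenge. Myd88, which was not called in the main fit, is the shared adaptor of the receptors. No sequence is shown for Cd14, which also rose.
Tlr1 (chr5:64933509-64933808, minus strand): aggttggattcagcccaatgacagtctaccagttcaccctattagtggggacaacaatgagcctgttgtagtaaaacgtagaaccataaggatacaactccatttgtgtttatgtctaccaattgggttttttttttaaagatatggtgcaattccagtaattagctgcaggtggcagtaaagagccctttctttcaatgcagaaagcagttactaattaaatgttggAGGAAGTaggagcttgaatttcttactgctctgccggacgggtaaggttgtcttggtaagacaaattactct
Tlr2 (chr3:83841559-83841858, minus strand): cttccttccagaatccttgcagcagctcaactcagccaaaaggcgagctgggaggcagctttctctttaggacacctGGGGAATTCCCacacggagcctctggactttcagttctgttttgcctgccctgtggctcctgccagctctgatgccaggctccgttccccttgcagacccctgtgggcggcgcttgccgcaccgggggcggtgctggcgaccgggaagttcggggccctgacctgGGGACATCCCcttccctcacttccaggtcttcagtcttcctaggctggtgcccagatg
Myd88 (chr9:119339969-119340268, minus strand): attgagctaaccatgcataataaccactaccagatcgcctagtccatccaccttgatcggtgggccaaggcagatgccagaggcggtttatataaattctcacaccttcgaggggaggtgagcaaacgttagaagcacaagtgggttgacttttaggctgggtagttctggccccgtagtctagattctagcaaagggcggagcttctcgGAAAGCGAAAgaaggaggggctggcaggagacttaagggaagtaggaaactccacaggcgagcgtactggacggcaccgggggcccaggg
Casp1 (chr9:5298267-5298566, plus strand): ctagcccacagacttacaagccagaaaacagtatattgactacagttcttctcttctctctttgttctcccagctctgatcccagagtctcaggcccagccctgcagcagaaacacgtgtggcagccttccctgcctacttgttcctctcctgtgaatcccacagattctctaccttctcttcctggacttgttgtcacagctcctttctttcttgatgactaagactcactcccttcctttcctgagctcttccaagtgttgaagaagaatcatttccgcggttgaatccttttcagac
The Tlr1 window held 1 ETS match, which begins at position -22 when the start site is 0, and a second Tlr1 entry (chr5:64932650-64932949) held no match to any of the 4 motifs. The Tlr2 window held 3 matches to the NF-kB motif, 2 of which overlap at -173 and -172 and the other of which begins at -8. The Myd88 window held 1 IRF match at -40, and none of the 4 motifs was found in these letters of the Casp1 window. Of the genes not shown, Tlr9 held 1 ETS and 1 AP-1 match, and NF-kB matches were also found for Tlr3, which was not tested (1 match), and in 1 of the 2 entries of Nlrp3, which was not called.

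The first question was whether the BAPN + AngII challenge changed these genes in mice without rapamycin (BA+DMSO against DMSO). Tlr1, Tlr2, Cd14 and Casp1 rose, and none of the genes fell. These 4 stand beside 9.65% of all tested probes that rose and 10.8% that fell. Tlr1 passed the brightness filter through the challenged groups, so its rise is partly set by the filter. The levels of the 2 groups did not overlap, with the challenged group higher, for 3 of the genes (Tlr1, Cd14 and Casp1), a pattern that 14.4% of all tested probes showed in this direction and 20.1% in the other, which no member showed.

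**Figure D1:**
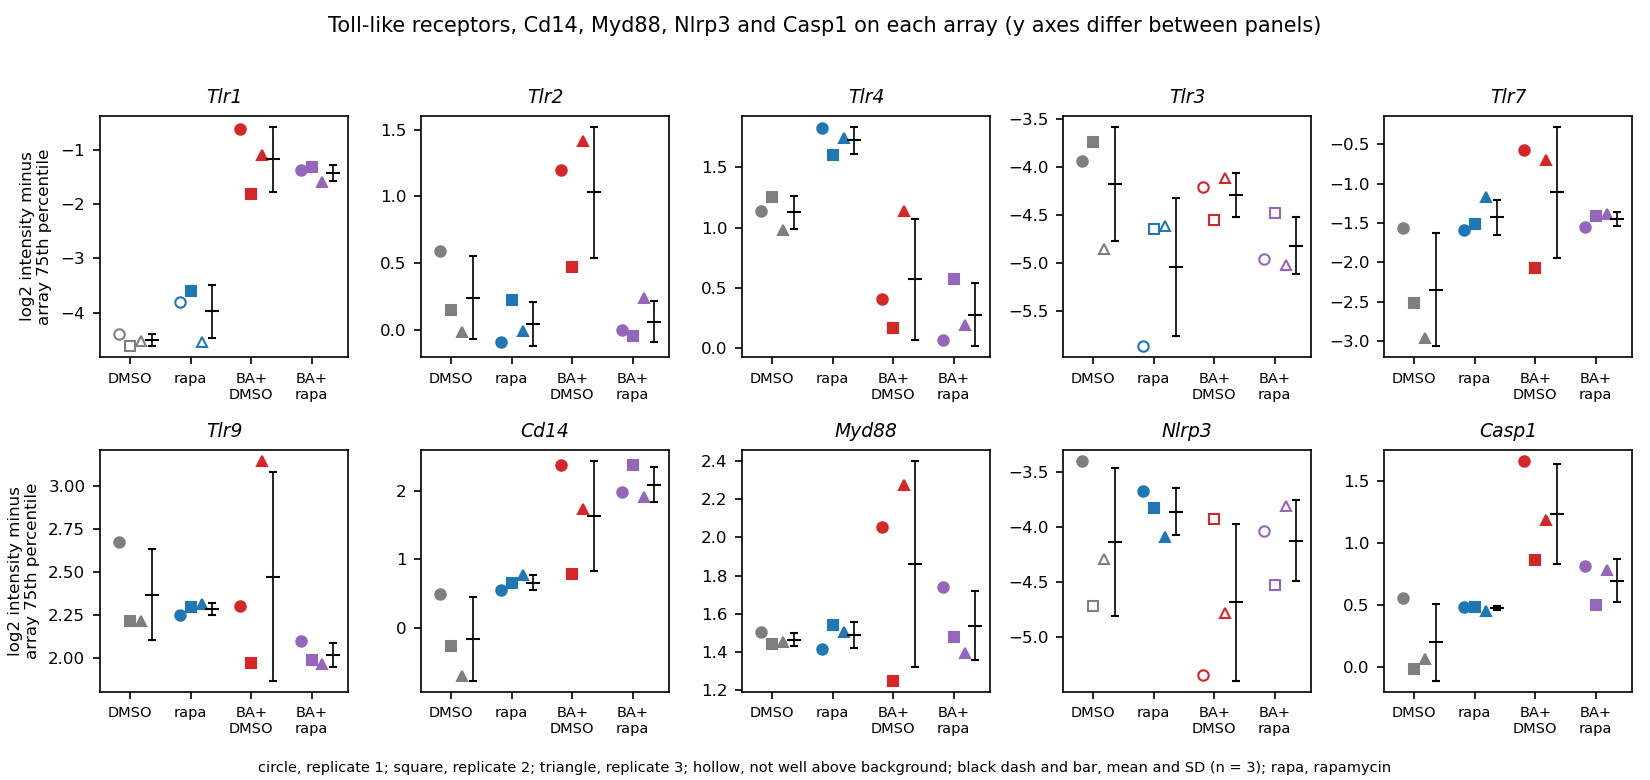
Level of each gene on each of the 12 arrays, as log2 intensity minus the 75th percentile of the array, with the mean and SD of the 3 mice in each group; hollow points are not well above background, and the y axis differs between panels. Tlr1, Cd14 and Casp1 lie higher in BA+DMSO than in DMSO on every array, and for Tlr2 and Casp1 every BA+rapamycin array lies below every BA+DMSO array.

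Tlr1, which pairs with Tlr2 to recognise bacterial lipopeptides, showed the largest difference of the 9 tested genes. Its levels on replicates 1, 2 and 3 were -4.39, -4.62 and -4.52 in DMSO and -0.61, -1.81 and -1.10 in BA+DMSO. No DMSO array was well above background and all 3 BA+DMSO arrays were. The measured difference was 3.33 (SE 0.31, limma adjusted p = 0.00019). Since the DMSO level is only a bound, the rise was at least 7.20-fold in the main fit. Over 22 alternatives the measured difference ran from 1.50 to 3.65, so this limit depends on the processing.

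Tlr2 read 0.59, 0.15 and -0.017 in DMSO and 1.20, 0.47 and 1.42 in BA+DMSO. The lowest challenged mouse lay below the highest vehicle mouse, so the groups overlapped. The difference of 0.79 (SE 0.25, adjusted p = 0.0487) stood just inside the threshold. It missed it under 14 of 23 alternatives, most of them omissions of 1 array, with an adjusted p up to 0.676.

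Tlr4 is the receptor for lipopolysaccharide and for several products of injured matrix. Its levels were 1.14, 1.26 and 0.98 in DMSO and 0.41, 0.17 and 1.14 in BA+DMSO. Replicates 1 and 2 of the challenged group were below every vehicle array and replicate 3 was among them. The difference of -0.55 (SE 0.24, adjusted p = 0.130) did not pass. Tlr4 was called lower without BA+DMSO replicate 3 (-0.84, adjusted p = 0.0074), where 20.7% of all tested probes fell, and with slide as a random block (-0.58, adjusted p = 0.0310), where 20.6% fell, and it was -0.35 (adjusted p = 0.278) without replicate 2.

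Cd14, which hands lipopolysaccharide to Tlr4 and also serves Tlr2, read 0.50, -0.27 and -0.71 in DMSO and 2.37, 0.79 and 1.74 in BA+DMSO. All challenged arrays were higher than all vehicle arrays. The difference was 1.79 (SE 0.38, adjusted p = 0.0099), a 3.46-fold rise.

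Of the endosomal receptors, Tlr7, which binds single-stranded RNA, read -1.56, -2.52 and -2.97 in DMSO and -0.57, -2.07 and -0.69 in BA+DMSO. The groups overlapped, and the difference of 1.24 (SE 0.41, adjusted p = 0.0557) narrowly missed the threshold, and it passed with slide as a random block (1.28, adjusted p = 0.0092). A second tested probe of Tlr7 gave 1.38 (SE 0.53, adjusted p = 0.0876). Tlr9, which binds DNA rich in unmethylated CpG, read 2.68, 2.21 and 2.21 in DMSO against 2.30, 1.97 and 3.14 under the challenge. These groups overlapped and differed by 0.10 (SE 0.27, adjusted p = 0.809). Its 95% interval ran from -0.48 to 0.69.

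Tlr3, the receptor for double-stranded RNA, was well above background on 2 arrays, both of them DMSO. Its levels were -3.93, -3.74 and -4.85 in DMSO, -5.87, -4.64 and -4.61 in rapamycin, -4.21, -4.55 and -4.11 in BA+DMSO and -4.96, -4.48 and -5.02 in BA+rapamycin. At such brightness no difference can be read from this probe.

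Myd88 read 1.50, 1.44 and 1.45 in DMSO and 2.06, 1.25 and 2.28 in BA+DMSO. The vehicle mice were nearly equal, while the challenged mice lay on both sides of them. The difference was 0.40 (SE 0.24, adjusted p = 0.258).

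Nlrp3 was near the limit of the array. It was well above background on 1 DMSO array (-3.40, with -4.72 and -4.29 on the others) and on no BA+DMSO array (-5.34, -3.92 and -4.78). The difference of -0.55 (SE 0.39, adjusted p = 0.347) did not pass, and it took the other sign, 0.46, when the background was corrected by normexp.

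Casp1 read 0.55, -0.017 and 0.066 in DMSO and 1.66, 0.86 and 1.18 in BA+DMSO. Every challenged array was above every vehicle array. The difference of 1.03 (SE 0.23, adjusted p = 0.0110) corresponds to a 2.05-fold rise.

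Array choice mattered here. Without DMSO replicate 2, Casp1 (0.92, adjusted p = 0.0589) and Tlr2 (0.74, adjusted p = 0.153) missed the threshold and Tlr1 and Cd14 passed, in a fit that called 7.38% of all tested probes in either direction. Without BA+DMSO replicate 2, 6 genes rose, beside 13.6% of all tested probes in that fit: the same 4 and also Tlr7 (1.72, SE 0.34, adjusted p = 0.0058) and Myd88 (0.70, SE 0.14, adjusted p = 0.0065). In that fit Tlr9 (0.36, adjusted p = 0.292) and Nlrp3 (-0.93, adjusted p = 0.0891) were not called. With slide as a fixed block, where the slides are linked only through the rapamycin arrays, none of the 4 calls held: Tlr1 gave 3.59 (adjusted p = 0.0725), Casp1 1.05 (0.427), Cd14 1.64 (0.455) and Tlr2 0.59 (0.676). That fit called 0.054% of all tested probes, against 9.65% higher and 10.8% lower without the block, so calls were lost across the array. With only the 2 groups in the fit, which called 4.47% of all tested probes, Tlr1 passed, and Cd14 (adjusted p = 0.0804), Casp1 (0.0927) and Tlr2 (0.184) did not at the same differences. With array brightness as a covariate 7 genes rose, beside 11.2% of all tested probes: the 4, Tlr7 (1.97, adjusted p = 0.0142), Myd88 (0.86, adjusted p = 0.0167) and Tlr9 (0.67, adjusted p = 0.0453).

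The same challenge was then examined in mice given rapamycin throughout (BA+rapamycin against rapamycin). This comparison shares no array with the one above. Tlr1 and Cd14 rose and Tlr4 fell. Among all tested probes 18.9% rose and 22.9% fell, so changes were common in this comparison. Groups did not overlap for 3 genes higher under challenge (Tlr1, Cd14 and Casp1), beside 29.8% of probes, and for 2 genes lower (Tlr4 and Tlr9), beside 36.1% of probes.

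Tlr1 read -3.81, -3.59 and -4.54 in rapamycin, with only the second well above background, and -1.36, -1.31 and -1.59 in BA+rapamycin. The challenged mice lay close together and far above the unchallenged ones. The difference was 2.56 (SE 0.31, adjusted p = 0.00036). Since 2 of the 3 rapamycin arrays were not well above background, its size is uncertain, and it ran from 1.43 to 2.85 over 23 alternatives. The limit that Tlr1 passed the filter through the challenged groups holds here too.

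Cd14 read 0.55, 0.65 and 0.77 in rapamycin and 1.98, 2.37 and 1.91 in BA+rapamycin. The difference of 1.43 (SE 0.38, adjusted p = 0.0144) was a 2.70-fold rise.

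Tlr4 read 1.82, 1.60 and 1.75 in rapamycin and 0.073, 0.58 and 0.19 in BA+rapamycin. Every challenged array was below every unchallenged one. The difference was -1.45 (SE 0.24, adjusted p = 0.0018), a 2.72-fold fall, and Tlr4 was the only one of the 9 genes to fall in any of the 4 group comparisons over all 12 arrays.

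The other 6 genes did not pass. Tlr2 read -0.095, 0.22 and -0.011 in rapamycin and -0.00082, -0.052 and 0.23 in BA+rapamycin, a difference of 0.021 (SE 0.25) with a 95% interval from -0.54 to 0.58. Casp1 read 0.48, 0.49 and 0.46 against 0.81, 0.50 and 0.78, a difference of 0.22 (SE 0.23, adjusted p = 0.444) although the groups did not overlap. Tlr2 and Casp1 thus rose with the challenge in vehicle mice and were not called in rapamycin mice, and whether these 2 responses differ is tested below as the interaction.

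Tlr7 read -1.59, -1.52 and -1.17 against -1.56, -1.41 and -1.39, a difference of -0.023 (SE 0.41). Tlr9 read 2.25, 2.29 and 2.31 against 2.10, 1.98 and 1.96, and its difference of -0.27 (SE 0.27, adjusted p = 0.426) was small though the groups stood apart. Myd88 read 1.41, 1.54 and 1.51 against 1.74, 1.48 and 1.39, a difference of 0.050 (SE 0.24). Nlrp3 was well above background on all 3 rapamycin arrays (-3.67, -3.82 and -4.08) and on no BA+rapamycin array (-4.03, -4.52 and -3.81), and its difference was -0.26 (SE 0.39, adjusted p = 0.604). With normexp background correction it was called in the opposite direction (0.81, adjusted p = 0.0090), so no direction can be read for Nlrp3. Nlrp3 passed the brightness filter only through the rapamycin group, where its mean is highest. Its differences from that group, here and for rapamycin alone, are therefore partly set by the filter.

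On slide 2 alone, where rapamycin replicates 2 and 3 stand beside the 3 BA+rapamycin arrays, Tlr1 (2.64, adjusted p = 0.0130) and Tlr4 (-1.40, adjusted p = 0.0381) passed, and Cd14 (1.38, adjusted p = 0.0679) did not, where 11.8% of all tested probes were called in either direction. With array brightness as a covariate Tlr1 passed (2.85, adjusted p = 0.0217), and Tlr4 (-0.81, adjusted p = 0.196) and Cd14 (2.18, adjusted p = 0.0768) did not, where 6.42% were called. In that fit the genes not called in rapamycin mice moved away from the values above, to 0.86 (adjusted p = 0.125) for Tlr2, 0.87 (adjusted p = 0.0849) for Myd88, 0.59 for Casp1, 1.26 for Tlr7, 0.72 for Tlr9 and -0.67 for Nlrp3. Brightness did not overlap between these groups, at 257 to 337 in rapamycin and 74.6 to 109 in BA+rapamycin. Brightness and challenge therefore cannot be told apart here, and neither set of values for Tlr2, Tlr7 and Myd88 can be preferred. Cd14 also missed the threshold without BA+rapamycin replicate 2 (1.29, adjusted p = 0.0520).

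**Figure D2:**
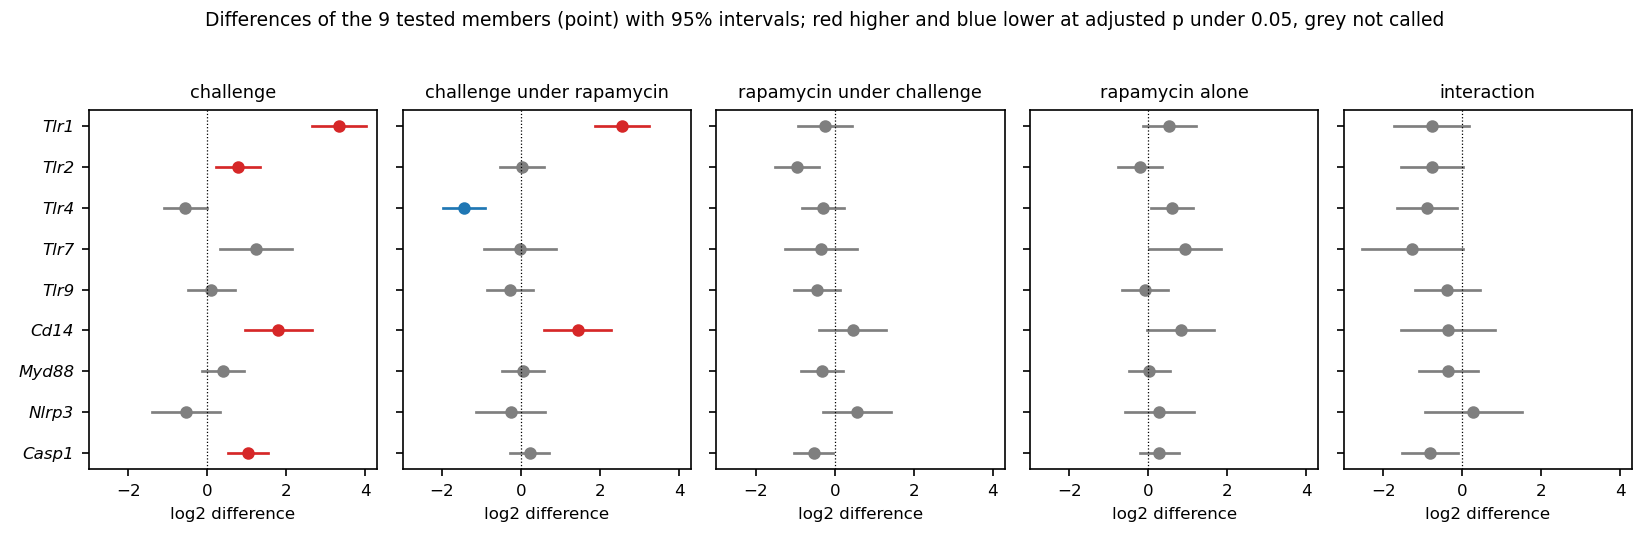
Log2 difference of each of the 9 tested genes with its 95% interval in the 4 group comparisons and the interaction, coloured by the call at an adjusted p under 0.05. Tlr1 and Cd14 are called higher under the challenge with and without rapamycin, Tlr2 and Casp1 only in the vehicle comparison, Tlr4 is called lower in the rapamycin comparison, and no gene is called in the other panels.

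The effect of rapamycin in challenged mice (BA+rapamycin against BA+DMSO) bears on the question in the study's title. No gene was called over all 12 arrays, and 2 of the 9 had an unadjusted p under 0.05, beside 20.1% of all tested probes, which is close to the same share. Few probes of any kind passed the adjusted threshold: 0.0719% were higher and 0.209% lower. Groups did not overlap for Tlr2 and Casp1, both lower with rapamycin, beside 7.57% of all tested probes in that direction and 6.9% in the other, which held none of the genes.

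Tlr2 was the gene with the smallest adjusted p. All BA+rapamycin arrays (-0.00082, -0.052 and 0.23) were below all BA+DMSO arrays (1.20, 0.47 and 1.42) and within the range of the DMSO and rapamycin arrays. The difference was -0.97 (SE 0.25, unadjusted p = 0.0028, adjusted p = 0.108).

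Casp1 was likewise lower on every rapamycin-treated array (0.81, 0.50 and 0.78 against 1.66, 0.86 and 1.18). Its difference was -0.54 (SE 0.23, unadjusted p = 0.0372, adjusted p = 0.229). Of the other genes, Cd14 differed by 0.46 (SE 0.38), Nlrp3 by 0.56 (SE 0.39), Tlr1 by -0.24 (SE 0.31), Tlr4 by -0.29 (SE 0.24), Tlr7 by -0.34 (SE 0.41), Myd88 by -0.32 (SE 0.24) and Tlr9 by -0.46 (SE 0.27), all within overlapping groups.

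This comparison depended on which BA+DMSO array was left out. Without BA+DMSO replicate 1 or replicate 3 none of the 9 genes was called, beside 224 and 34 of 27801 tested probes. Without BA+DMSO replicate 2, 4 genes fell with rapamycin: Tlr2 (-1.25, SE 0.20, adjusted p = 0.0034), Myd88 (-0.63, SE 0.14, adjusted p = 0.0091), Casp1 (-0.72, SE 0.21, adjusted p = 0.0226) and Tlr9 (-0.71, SE 0.24, adjusted p = 0.0392). In that fit 22.5% of all tested probes fell, against 0.209% with the array in. The other 5 genes were not called, and their differences became 0.032 for Cd14, 0.94 for Nlrp3, -0.56 for Tlr1, -0.49 for Tlr4 and -0.82 for Tlr7, each moved by over 1.5 times. The remaining BA+DMSO arrays are the 2 brightest of the 6 challenged ones. In the fit with the dimmest array of both challenged groups left out, Tlr2 and Myd88 fell, beside 19.1% of all tested probes. With brightness as a covariate none of the 9 was called, beside 1.12% of all tested probes, and Tlr2 gave -0.70, Casp1 -0.42, Tlr9 -0.14, Myd88 -0.060 and Cd14 0.70.

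Rapamycin alone was compared with DMSO in unchallenged mice. No gene was called, all adjusted p values were 1.00, and 0.0036% of all tested probes were called. An unadjusted p under 0.05 was found for 2 of the 9 genes and for 4.27% of all tested probes. Groups did not overlap for Tlr4 and Cd14, both higher with rapamycin, beside 10.8% of probes in that direction and 10.7% in the other.

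The 3 rapamycin levels of Tlr4 (1.82, 1.60 and 1.75) were above its 3 DMSO levels (1.14, 1.26 and 0.98), a difference of 0.60 (SE 0.24, unadjusted p = 0.0318). Cd14 differed by 0.82 (SE 0.38, unadjusted p = 0.0569) and Tlr7 by 0.92 (SE 0.41, unadjusted p = 0.0473). Tlr2 differed by -0.20 (SE 0.25), Tlr9 by -0.083 (SE 0.27), Myd88 by 0.023 (SE 0.24), Nlrp3 by 0.27 (SE 0.39) and Casp1 by 0.27 (SE 0.23). The measured difference of Tlr1 was 0.53 (SE 0.31). Its size is uncertain, since Tlr1 was well above background on 1 rapamycin array and on no DMSO array. None of these values exceeds what the spread between mice allows after adjustment over all probes.

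The interaction asks whether rapamycin acted differently with and without the challenge. It was called for 0% of tested probes and for none of the 9 genes by limma, with 0.737 as the smallest adjusted p among them and an unadjusted p under 0.05 for 2, beside 6.12% of all tested probes. The values were below 0 for 8 of the 9 genes, with a median of -0.77 beside -0.033 over all tested probes. The macrophage markers described below were alike, with 8 of 10 below 0 and a median of -0.76, and 40 of 65 further pathway genes were below 0. All genes share the same arrays, so their signs are not independent. Among the 9 genes, Nlrp3 turned below 0 under quantile normalization. Tlr9 and Myd88 turned above 0 with brightness as a covariate, where the 9 values lay between -0.71 and 0.11. In the main fit the values were -0.89 (SE 0.34) for Tlr4, -0.81 (SE 0.32) for Casp1, -0.77 (SE 0.36) for Tlr2 and -1.26 (SE 0.58) for Tlr7, and Nlrp3 at 0.28 (SE 0.56) was the gene above 0. A value below 0 means that the mean moved down more, or up less, with rapamycin under the challenge than without it. Without BA+DMSO replicate 2 the interaction was called below 0 for Tlr2 (-1.04, adjusted p = 0.0428), Tlr7 (-1.74, adjusted p = 0.0439), Tlr4 (-1.09, adjusted p = 0.0493) and Casp1 (-0.998, adjusted p = 0.0494), in a fit that called 7.08% of all tested probes below 0. The genes not called there that moved by over 1.5 times were Tlr9 (-0.62), Cd14 (-0.79), Myd88 (-0.65) and Nlrp3 (0.66).

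Markers of leukocytes moved with the challenge. Ptprc, which encodes the pan-leukocyte antigen CD45, rose by 1.79 (SE 0.34, adjusted p = 0.0053) in vehicle mice and by 1.74 in rapamycin mice. Of 10 macrophage markers, 9 rose with the challenge in vehicle mice, beside 9.65% of all tested probes, and 7 in rapamycin mice, beside 18.9%. None was called between the 2 challenged groups, where the markers ranged from -0.81 to 0.70. When BA+DMSO replicate 2 was left out, 9 rose in vehicle mice, and between the challenged groups Cd68 (-1.25, adjusted p = 0.0063) and Adgre1 (-1.19, adjusted p = 0.0134) fell with rapamycin and Itgam rose (1.22, adjusted p = 0.0220), so that 2 of 10 fell beside 22.5% of all tested probes and 1 of 10 rose beside 17.4%. Of the other marker lists in that comparison and fit, 3 of 6 smooth muscle markers (Myh11 by 1.26, Tagln by 0.83 and Acta2 by 0.42), 2 of 4 dendritic cell markers, 1 of 5 neutrophil markers and 1 of 5 endothelial markers rose and none fell. In that fit the interaction was called below 0 for Cd68 and Adgre1 (2 of the 10, beside 7.08% of all tested probes). It was called above 0 for the smooth muscle markers Myh11 (1.26) and Tagln (0.96) and the neutrophil marker Csf3r (1.36), beside 3.92%. Ptprc rose by 2.06 with the challenge in the same fit. The summed level of the 10 macrophage markers, in multiples of the array's 75th percentile, ran from 111 to 142 in DMSO and from 121 to 145 in rapamycin. Under the challenge it reached 190 to 493 with DMSO and 380 to 504 with rapamycin. This sum adds different probes and is carried by the brightest, Itgam, which made up 48.5% to 86.6% of it on BA+DMSO arrays and was highest on replicate 2, the array with the lowest level of its group for the other 9 markers. Without Itgam the sum was 22.4 to 38.9 in DMSO, 35.4 to 43.6 in rapamycin, 66.2 to 155 in BA+DMSO, lowest on replicate 2, and 93.7 to 96.7 in BA+rapamycin. In vehicle mice the challenge also raised 1 of 5 tested neutrophil markers, 2 of 4 T and B cell markers, 1 of 4 dendritic cell markers and 1 of 5 endothelial markers, none of 4 fibroblast and 4 adipocyte markers was called, and 1 of 6 smooth muscle markers fell, beside 9.65% of all tested probes that rose and 10.8% that fell. When BA+DMSO replicate 2 was left out, 1 fibroblast marker rose and 3 smooth muscle markers fell, beside 13.6% each way, and the other counts were as before. On each array 9 or 10 of the 10 macrophage markers were well above background, and the marker below it was Cd163 wherever there was one.

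**Figure D3:**
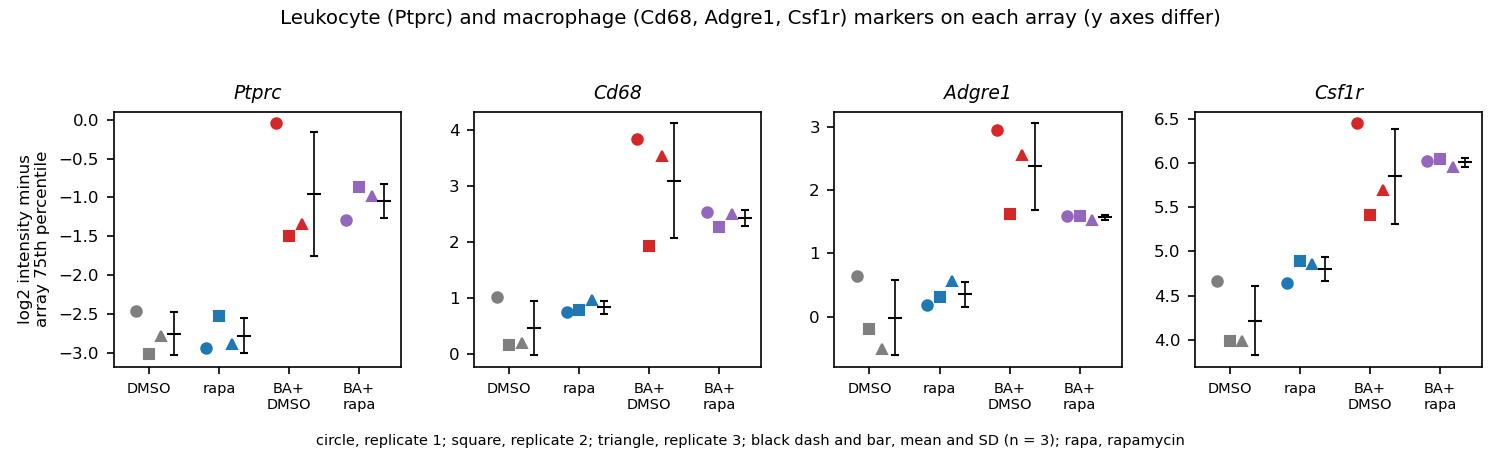
Level of Ptprc, Cd68, Adgre1 and Csf1r on each of the 12 arrays, as log2 intensity minus the array's 75th percentile, with mean and SD of 3 mice. All 4 markers are higher on each challenged array than on each unchallenged one, and BA+DMSO replicate 2 (square) is the lowest of its group.

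Of these markers, Cd68 read 3.84, 1.93 and 3.53 in BA+DMSO and 2.53, 2.27 and 2.49 in BA+rapamycin, and Adgre1, which encodes F4/80, read 2.95, 1.62 and 2.56 against 1.59, 1.59 and 1.52. Replicates 1 and 3 of BA+DMSO were above all BA+rapamycin arrays in both, while Itgam was higher with rapamycin (1.22) without BA+DMSO replicate 2. BA+DMSO replicate 2 was the lowest of its group for 9 of the 10 macrophage markers. Csf1r, the receptor for macrophage colony-stimulating factor, read 6.45, 5.41 and 5.69 against 6.03, 6.05 and 5.95, with overlap. The part of macrophage content in the differences of Tlr1, Tlr2, Cd14 and Casp1 was not tested.

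Several of the genes had more than 1 probe, and the first 30 of the 60 bases of each probe of Tlr4 and Tlr7 are shown because probes of the same gene differed in whether they gave a signal. Positions are those of the array files on build mm9.
Tlr4, tested (chr4:66503470-66503529, plus strand): ttgagaacattttggggaggaagaaaggtc
Tlr4, not tested (chr4:66590077-66590136, plus strand): gaaattgggtactcatgtttacatgtggac
Tlr7, brightest (chrX:163742863-163742922, minus strand): tctctctctctgatactgaactgtaccaga
Tlr7, second tested (chrX:163743146-163743205, minus strand): cataaatgaaggtctgaatttttcctaaca
Tlr7, not tested (chrX:163747214-163747273, minus strand): atgtaatgctgcttctgtatcttaaaaact
The tested Tlr4 probe is annotated to the RefSeq transcript of the gene and was well above background on all 12 arrays. The other is annotated to an Ensembl transcript and was well above background on none. Both tested Tlr7 probes belong to the RefSeq transcript, and neither was called in any comparison of the main fit. The brightest was called under the challenge in 8 of 23 alternatives. The third Tlr7 probe and a second Nlrp3 probe were above background on no array.

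The wider pathway was followed through 86 further genes in 8 lists, of which 65 were tested. In vehicle mice 21 of the 65 rose with the challenge and 3 fell, with a median difference of 0.51, beside 9.65% of all tested probes that rose, 10.8% that fell and a median of -0.045. In rapamycin mice 25 rose and 7 fell, beside 18.9% and 22.9%. Small lists with few genes called, such as 1 of 7 or 3 of 16, hold at most 2 genes more than these shares would give. In the main fit no gene of any list was called for rapamycin under challenge, for rapamycin alone or for the interaction. With BA+DMSO replicate 2 left out the challenge raised 28 and lowered 2, beside 13.6% of all tested probes each way. The 8 genes gained there, named after their values were seen, were Tlr6, Ly96, Hsp90b1, Irak3, Casp8, P2rx7, Ptgs2 and Nos2. In that fit 7 genes rose and 14 fell with rapamycin under challenge, beside 17.4% and 22.5%. The 7 that rose, named after their values were seen, were Tirap, Traf6, Sigirr, Naip5, Nod1, Hmgb1 and Tnc. The interaction was called there above 0 for 1 gene and below 0 for 2, beside 3.92% and 7.08%. Mefv, Il6 and Saa3, named below, were well above background on no DMSO array and passed the brightness filter through challenged groups, where they are high, so that their rises are partly set by the filter.

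**Figure D4:**
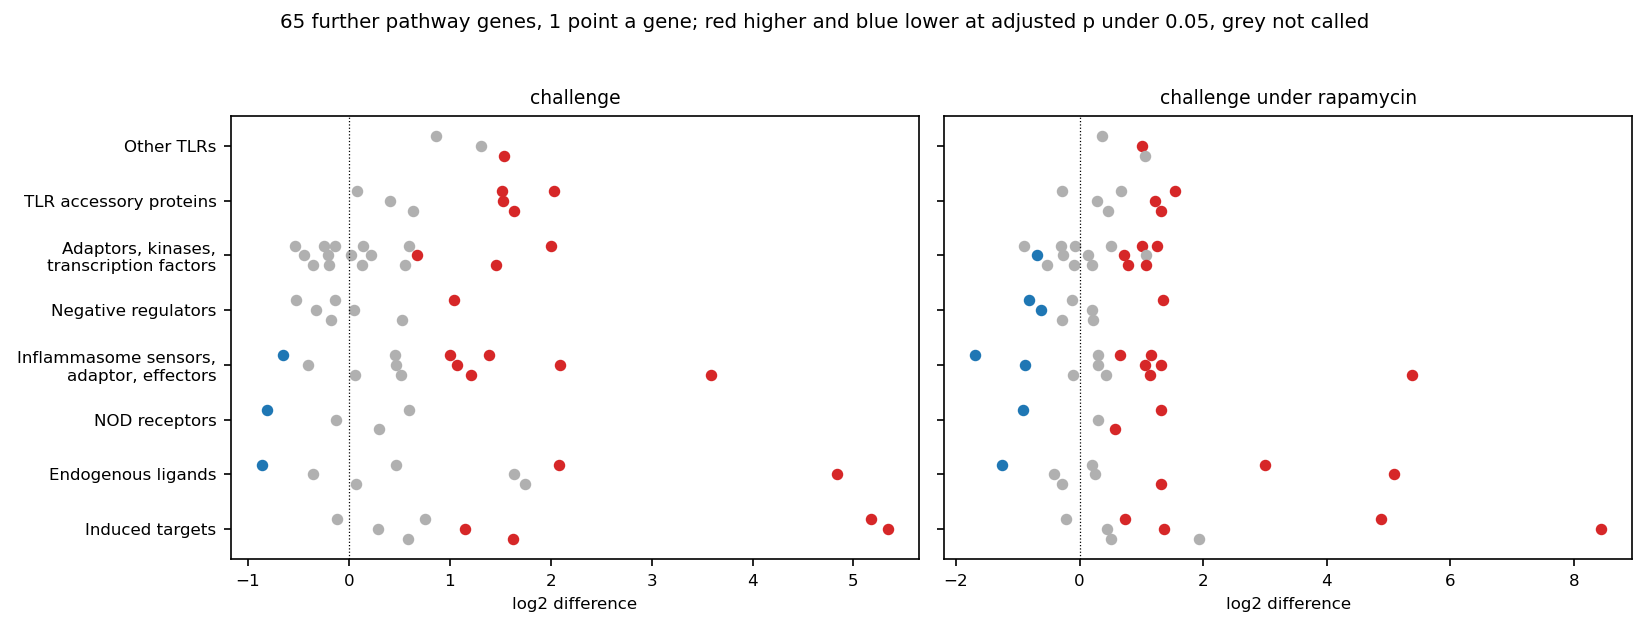
Log2 difference of the 65 tested pathway genes under the challenge in vehicle mice (left) and in rapamycin mice (right), 1 point a gene, by list, coloured by the call. Il6, Ccl2, Saa3 and Mefv lie furthest to the right in both panels as measured, but the unchallenged levels of Il6 and Mefv in both panels, and of Saa3 in vehicle mice, are not well above background, so their order is not settled.

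Among the other TLRs, 1 of 3 tested genes rose: Tlr13, a receptor for bacterial ribosomal RNA, by 1.54 (SE 0.22, adjusted p = 0.0013) in vehicle mice and by 1.01 in rapamycin mice. Tlr8 (1.31) and Tlr6 (0.87) did not pass, and without BA+DMSO replicate 2 Tlr8 was 0.61 and Tlr6 rose (1.33, adjusted p = 0.0062). Of 7 accessory proteins 3 rose in rapamycin mice and 4 in vehicle mice. In vehicle mice Ly86, which partners the TLR relative CD180, rose by 2.03, and Lbp, which carries lipopolysaccharide to Cd14, by 1.64. The scavenger receptor Cd36 rose by 1.52 (1.37 at an adjusted p of 0.0543 without BA+DMSO replicate 2). Unc93b1, named after its value was seen, moves the endosomal receptors to their compartment and rose by 1.52.

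Of 16 tested adaptors, kinases and transcription factors 3 rose in vehicle mice, namely Irf7 by 2.01 (SE 0.49, adjusted p = 0.0169), Irf5 by 1.46 and the Myd88 partner Tirap by 0.67 (0.45 without BA+DMSO replicate 2, also called). Irf7 differed by -1.39 (SE 0.49, adjusted p = 0.181) between BA+rapamycin and BA+DMSO without overlap of the groups, and by -1.57 (adjusted p = 0.0493) without BA+DMSO replicate 2. Of 7 negative regulators 1 rose in vehicle mice, Sigirr by 1.04, while Irak3 (0.53) and Tollip (-0.52) did not pass. With BA+DMSO replicate 2 left out Irak3 rose (0.65, adjusted p = 0.0359) and Tollip was -0.23. In rapamycin mice 1 of the 7 rose and 2 fell.

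In the inflammasome list 12 of 19 genes were tested, and in vehicle mice 6 of these rose and 1 fell. Nlrp1b, Nlrc4, Aim2, Naip1, Naip6, Il1a and Il1b had no tested probe. Mefv, which encodes the sensor pyrin, rose (adjusted p = 0.00095), and was well above background on no DMSO array and on 2 of 3 BA+DMSO arrays. With lower DMSO levels raised to the lowest value well above background on their array, the rise was 3.86-fold. This is not a strict lower limit, since not every BA+DMSO array was well above background. Naip2, a sensor of bacterial secretion systems, rose by 2.09 and Pycard, the adaptor that joins Nlrp3 to Casp1, by 1.39 (SE 0.32, adjusted p = 0.0130). The others that changed, named after their values were seen, were Il18, Casp4 and Gsdmd, the pore protein cleaved by inflammatory caspases, which rose, and Nek7, a partner of Nlrp3, which fell by 0.65 (-0.41, adjusted p = 0.0416, without BA+DMSO replicate 2). Pycard fell with rapamycin under challenge (-1.15, adjusted p = 0.0042) once BA+DMSO replicate 2 was left out. In the same fit and comparison Casp8, Nek7 and Il18 also fell, and Naip5 of this list rose (0.96, adjusted p = 0.0251).

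Of 4 NOD receptors and partners none rose in vehicle mice, and Nlrx1, a mitochondrial relative, fell by 0.82. There Nod2 (0.59) and Nod1 (0.30, and 0.15 without BA+DMSO replicate 2) did not pass. In rapamycin mice 2 of the 4 rose and 1 fell. Of 8 endogenous ligands 2 rose and 1 fell in vehicle mice, and 3 rose and 1 fell in rapamycin mice. In vehicle mice Saa3, an acute-phase protein, rose at least 8.12-fold, and the matrix protein Tnc rose by 2.08. S100a8 (1.74, adjusted p = 0.0628) did not pass. Vcan, named after its value was seen, was the ligand that fell (-0.86, and -0.62 at an adjusted p of 0.0738 without BA+DMSO replicate 2).

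Of 15 listed targets that TLR signalling induces, 8 were tested, and 4 of these rose in vehicle mice. Tnf, Cxcl2, Il12b, Il10, Cxcl10, Ifnb1 and Acod1 had no tested probe. Il6 rose, with 2 of 3 BA+DMSO arrays and no DMSO array well above background. By the same reckoning as for Mefv the rise was 13.0-fold, again not a strict lower limit. The measured difference of Il6 was 5.34, and 7.07 without BA+DMSO replicate 2. Ccl2 rose by 5.17 (SE 0.72, adjusted p = 0.0012) and Cxcl1 by 1.62. In rapamycin mice Il6 rose 104-fold by the same reckoning, Ccl2 rose by 4.88, and Cxcl1 (0.50, adjusted p = 0.144) did not pass. Between the 2 challenged groups Il6 differed by 2.99 (SE 1.23, adjusted p = 0.222) and Ccl2 by 0.15 (SE 0.72), neither of which passed. Those values were 1.26 (adjusted p = 0.212) and -0.55 (adjusted p = 0.537) without BA+DMSO replicate 2.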

How the data were processed

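RNA of 12 aortas was labelled with Cy3 and hybridised by the authors to 1-colour Agilent arrays. Per the file headers, the deposited scanner files (Feature Extraction 10.7.1.1; the submitters' notes give 9.5.1.1) hold a linear, background-subtracted and detrended intensity for each spot, without any scaling across arrays, and flags of 0 or 1 for spots well above background or outlying. The deposited matrix of intensity matched quantile normalization of these values (lowest correlation 0.9999). Samples were grouped by treatment label. Outlier spots were left out, log2 values of a probe's spots averaged and the array's 75th percentile subtracted. For a probe to be tested, 1 group had to have it well above background (in a share of 0.5 or more of its spots) on each of its 3 arrays. All groups were fitted in limma 3.58.1 (R 4.3.3), two-sided, with Benjamini-Hochberg adjustment over 27801 probes in each of 5 contrasts. The prior had 3.02 degrees of freedom, and no spot was saturated. The fit was tested on simulated data, but the outcome is not given here and no result rests on it. The alternatives were other normalizations, background corrections, filters, slide and replicate blocks, and omission of each array. All 10 genes are named, with the 3 pathway genes of each list that differed most under the challenge. The genes and lists were chosen with earlier results of these data known. The promoter motifs, with the IRF and NF-kB ones read as consensus patterns, were chosen after the data were seen. The precision is limited by the number of arrays.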

Additional observations from a re-analysis of the deposited data

How the results depend on the processing

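All values here are log2 differences or counts of the 9 tested genes called. The count under the challenge kept within 1.5 times its value in 21 of 26 settings; it was 0 with slide as a fixed block, 1 with only the 2 groups of the contrast, 7 with brightness as a covariate and 1 under the methods' rule (which called 2.51% of all tested probes), and ran from 2 (without DMSO replicate 2) to 6 (without BA+DMSO replicate 2) as each array was left out. For the challenge under rapamycin it was 1 with the brightness covariate, 1 under the methods' rule (5.14% of all tested probes) and 2 to 3 as arrays were left out. For rapamycin under challenge it ran from 0 to 4 and for the interaction from 0 to 4, both highest without BA+DMSO replicate 2, and it was 2 for rapamycin under challenge without the dimmest array of both challenged groups, an alternative chosen after seeing the data. Without BA+DMSO replicate 2, also added later for the lists, 30 pathway genes were called under the challenge against 24 over all arrays, 21 for rapamycin under challenge and 3 for the interaction against 0, and 3 and 2 macrophage markers against 0 in the last 2 comparisons. With the replicate block 0 genes were called for rapamycin alone, as without it. Over 1034 values of single genes, 950 kept direction and call, 24 lost the call, 24 gained it and 36 changed sign. Signs changed under normexp for Tlr9 (-0.027) and Nlrp3 (0.46) in the challenge, Nlrp3 in rapamycin alone (-0.017), and Tlr7 (0.30), Myd88 (-0.19) and Nlrp3 (0.81, called at an adjusted p of 0.0090) in the challenge under rapamycin. With brightness they changed for Tlr7 in rapamycin under challenge (0.073), Myd88 in rapamycin alone (-0.065), Tlr7 (1.26) and Tlr9 (0.72) in the challenge under rapamycin, and Tlr9 (0.052) and Myd88 (0.0054) in the interaction. With the slide block, and within 1 slide, Myd88 in rapamycin alone (-0.051) and Tlr2 in the challenge under rapamycin (-0.046) did so. The others were Nlrp3 in the interaction with quantile normalization (-0.20) or the deposited matrix (-0.20), Tlr7 in the challenge under rapamycin with the percentile over detected probes (0.16), Tlr2 (0.041) and Tlr9 (0.090) in rapamycin alone on samples of 1 title date, and Cd14 in rapamycin under challenge without the dimmest arrays (-0.11). As single arrays were left out, values spanned zero for Tlr9 in the challenge (-0.23 to 0.36), Tlr1 in rapamycin under challenge (-0.56 to 0.038), Tlr9 (-0.16 to 0.071), Myd88 (-0.0044 to 0.060) and Nlrp3 (-0.017 to 0.64) in rapamycin alone, Tlr2 (-0.065 to 0.11), Tlr7 (-0.11 to 0.11) and Myd88 (-0.052 to 0.12) in the challenge under rapamycin, and Cd14 (-0.79 to 0.0094) and Nlrp3 (-0.084 to 0.66) in the interaction. The cause was not tested. Tlr3 and Nlrp3 lay near background, which limits what their probes show.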
